A study of Mus musculus with 18 samples.

Results

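Sox10, S100b, Gfap, Cdh19, Foxd3, Gfra3, Ngfr and Sostdc1 are 8 genes used as markers of Schwann cells and other glia, and they were followed here in RNA-seq libraries of whole mouse islets. They were taken by gene symbol, and all 8 were found among the 53801 mouse genes listed. All 8 passed the filter on low counts, which left 18364 genes for testing.

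Islets of Langerhans are the endocrine cell clusters of the pancreas. Schwann cells are the glia of peripheral nerves, and they come from the neural crest. In the pancreas, non-myelinating Schwann cells run with autonomic nerve fibres and wrap the outer face of the islet as a thin sheath. Sox10 is the transcription factor that specifies and maintains the glial lineage, Foxd3 is a neural crest factor kept in immature glia, and S100b and Gfap are the calcium-binding protein and the intermediate filament by which islet glia are usually stained. Cdh19 is a cadherin of Schwann cell precursors, Ngfr is the p75 neurotrophin receptor, Gfra3 is the co-receptor that presents the ligand artemin to the kinase Ret, and Sostdc1 is a secreted antagonist of BMP and Wnt signalling.

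The islets came from 5-week-old mice on normal chow, either wild type (WT) or heterozygous for the S64F variant of MafA (S64F/+). MafA is a transcription factor of beta cells, and S64F replaces 1 amino acid of it. Males gave 4 libraries of each genotype and females gave 5 of each, 18 in all, with a median of 42.4 M counts per library and a range from 19.3 to 108.7 M. The sources used here give neither the strain, nor the cells that carry the variant, nor whether animals were pooled, and nothing states that replicates are separate animals, so p-values measure the spread between these libraries only. Mafa itself was at 905 ± 80.8 CPM (counts per M of the library's TMM-scaled total; mean ± SD, n = 4) in male WT and 197 ± 52.3 in male S64F/+ islets, and at 639 ± 117 and 160 ± 49.8 in the female groups (n = 5 each). Replicates of a group differed by more than counting noise: over the 32 pairs within groups the lowest chi-square per degree of freedom was 21.7. This cannot tell separate animals from separate preparations of the same animals.

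Promoter sequence is shown for Gfap and Ngfr, which were called higher in male S64F/+ islets and had a window read from the RefSeq promoter table. Windows, on GRCm38.p6, were read for 4 of the 8 members, S100b, Gfap, Foxd3 and Ngfr. Whether the table has entries for the remaining members is not reported here. The Gfap stretch is chr11:102897201-102897450 and the Ngfr stretch is chr11:95587736-95587948, both on the minus strand and written 5′ to 3′. The Ngfr window of 250 bases is shown without the 37 bases nearest the start, which GENCODE annotates as exon. The Gfap stretch lies inside the GENCODE span of the gene, chr11:102887336-102900912. Capitals mark the letters of a searched motif.
Gfap: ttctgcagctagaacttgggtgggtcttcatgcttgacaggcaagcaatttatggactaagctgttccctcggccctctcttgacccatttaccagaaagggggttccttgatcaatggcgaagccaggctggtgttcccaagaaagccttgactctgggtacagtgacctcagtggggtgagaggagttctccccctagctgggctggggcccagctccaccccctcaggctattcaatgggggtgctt
Ngfr: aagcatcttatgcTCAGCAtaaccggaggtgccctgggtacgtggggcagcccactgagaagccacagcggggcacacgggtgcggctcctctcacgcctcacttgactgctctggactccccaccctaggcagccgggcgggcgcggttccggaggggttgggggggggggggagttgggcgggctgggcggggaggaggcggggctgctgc
The motifs searched, on both strands, were ACAAAG and ACAATG, which are core sequences of SOX factors, and TGCTGA, a part of the element bound by MAF factors. They occurred in 16.5%, 10.7% and 16.1% of all 32851 promoter windows of 250 bases. Among the windows of S100b, Gfap, Foxd3 and Ngfr the only match was TCAGCA, the other strand of TGCTGA, in Ngfr, starting at position -237 from the RefSeq start. The Ngfr window held 16 CpG dinucleotides with 70.4% G and C, and the Foxd3 window 21 with 65.6%. The windows of Gfap and S100b held 2 each, with 55.6% and 53.6%. A match is a description of these letters and does not show binding.

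The positions of the genes on GRCm38 are given as their GENCODE M21 spans. Sox10 is at chr15:79154908-79165240 on the minus strand, S100b at chr10:76253853-76261159 on the plus strand and Gfap at chr11:102887336-102900912 on the minus strand. Cdh19 is at chr1:110888326-110977584 on the minus strand and Foxd3 at chr4:99656299-99658622 on the plus strand. Gfra3 is at chr18:34689898-34720387 and Ngfr at chr11:95568818-95587735, both on the minus strand, and Sostdc1 is at chr12:36314139-36318452 on the plus strand. No member shared exon bases with a gene on the other strand. Foxd3 alone shared exon bases with another gene, 89 bases of Gm23366, which had 0 counts in all libraries.

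In male islets all 8 genes were higher in every S64F/+ library than in every WT library. The model fitted across all genes (edgeR's quasi-likelihood test, Benjamini-Hochberg adjusted p up to 0.05) called 4 of them higher, Sox10, Gfap, Ngfr and Gfra3, and none lower. In the same comparison 15.4% of all tested genes were called higher and 12.3% lower, and 17.8% had all S64F/+ libraries above all WT libraries. The members' log2 fold changes ranged from 1.01 to 2.29 with a median of 1.85, beside a median of -0.03 over all tested genes. Which cells the RNA of these genes came from was not tested, and more cells and more RNA per cell cannot be told apart in bulk samples.

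Sox10 was at 0.940, 2.33, 1.26 and 1.71 CPM in the 4 male WT libraries and at 7.01, 7.04, 4.24 and 4.50 in the 4 male S64F/+ libraries. The lowest S64F/+ library was thus well above the highest WT library. The log2 fold change was 1.84 ± 0.61 (SE) with an edgeR adjusted p of 0.0325. This call was lost when male WT 1, 3 or 4 or male S64F/+ 1 or 2 was left out (adjusted p = 0.0692 to 0.0888), and when genes of low count were kept in the test (0.0749).

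Foxd3, the other transcription factor, was at 0.608, 1.78, 1.46 and 0.988 CPM in male WT and at 3.20, 3.74, 2.31 and 2.32 in male S64F/+ libraries. The groups did not overlap, although the edgeR test did not call the difference, with a log2 fold change of 1.23 ± 0.54 and an adjusted p of 0.102.

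Gfap was at 0.111, 0.722, 0.931 and 0.608 CPM in male WT and at 2.88, 3.55, 3.00 and 2.64 in male S64F/+ libraries. The S64F/+ values lay close together, while male WT 1 stood low with 2 counts. Gfap had the highest fitted change of the 8 genes, a log2 fold change of 2.29 ± 0.63 with an edgeR adjusted p of 0.0114. S100b was at 0.111, 0.794, 0.798 and 0.304 CPM in male WT and at 2.18, 2.72, 1.36 and 1.71 in male S64F/+ libraries. Male WT 1 again held only 2 counts, and the log2 fold change of 1.91 ± 0.84 was not called (edgeR adjusted p = 0.103). Cdh19 was at 0.885, 2.26, 1.86 and 1.79 CPM in male WT and at 7.45, 6.42, 5.74 and 5.33 in male S64F/+ libraries. Its log2 fold change of 1.85 ± 0.69 fell just outside the threshold, with an edgeR adjusted p of 0.0552.

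Among the receptors, Ngfr was at 0.829, 1.97, 2.03 and 1.44 CPM in male WT and at 6.21, 9.39, 7.5 and 6.53 in male S64F/+ libraries. Each S64F/+ library held at least 3 times the CPM of the highest WT library. The log2 fold change was 2.21 ± 0.61 with an edgeR adjusted p of 0.0130. Gfra3 was at 12.2, 11.4, 12.5 and 14.5 CPM in male WT and at 27.6, 31.2, 38.6 and 32.4 in male S64F/+ libraries. It was the most abundant member, its libraries lay close together within each group, and its log2 fold change of 1.36 ± 0.15 had an edgeR adjusted p of 4.44e-06. Sostdc1 was at 2.21, 1.01, 2.69 and 3.34 CPM in male WT and at 5.82, 4.66, 3.57 and 4.50 in male S64F/+ libraries. The highest WT and the lowest S64F/+ libraries nearly met, and the log2 fold change of 1.01 ± 0.47 was not called (edgeR adjusted p = 0.126).

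**Figure D1:**
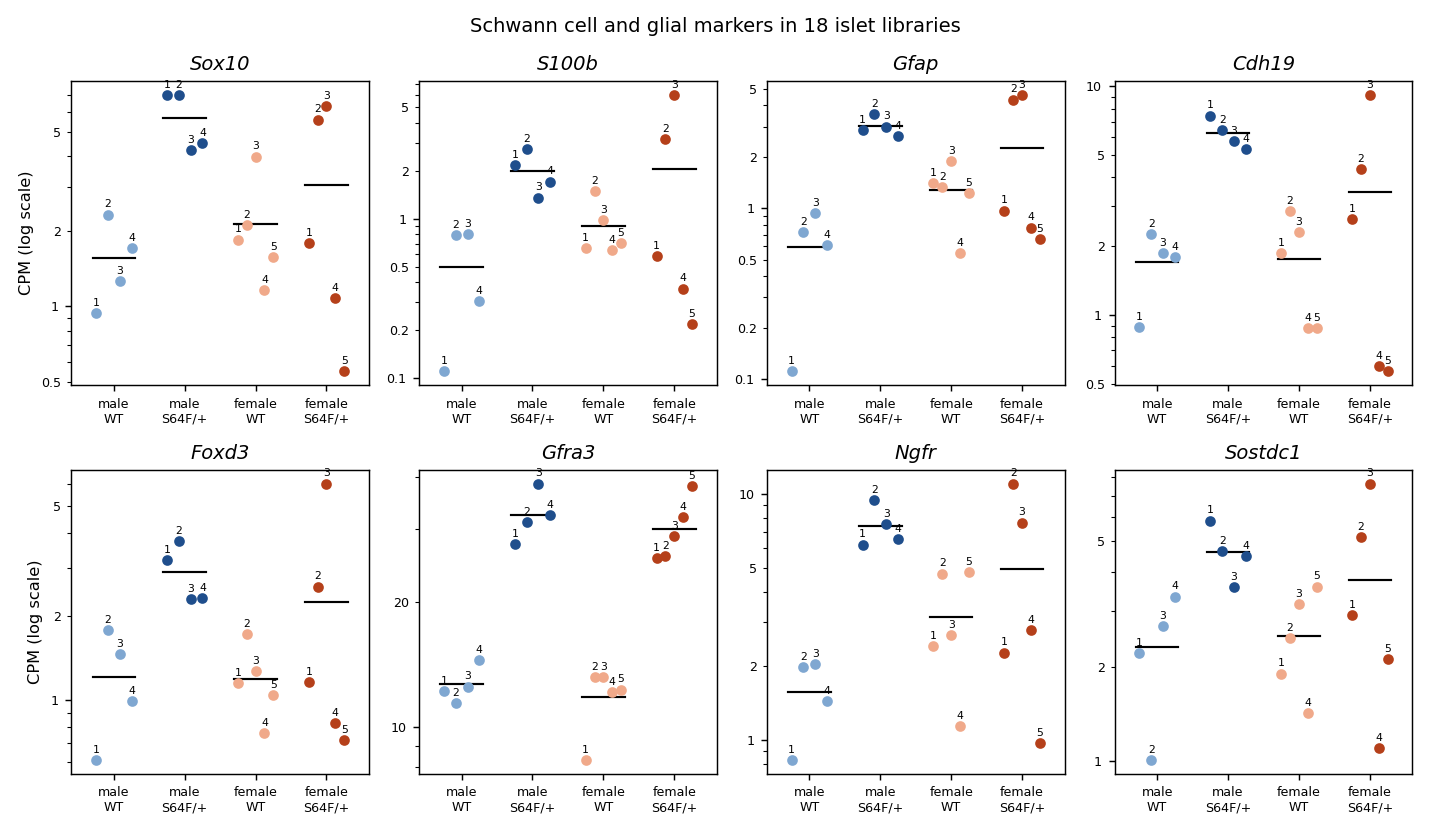
CPM of each gene in each library (log scale), with libraries numbered by replicate and a line at each group's mean. In males the S64F/+ libraries lie above the WT libraries for all 8 genes, and in females only Gfra3 has groups that do not overlap.

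The shared fit takes its estimate of spread from all 4 groups, and by the ratio of the highest to the lowest library the female S64F/+ group had the widest spread of the 4 for all members but Gfap and Gfra3. Fitted on the male libraries alone, all 8 members were called higher, beside 19.2% of all tested genes. DESeq2 on all libraries called 6, adding S100b and Cdh19, beside 3170 of all 18364 tested genes. Without female S64F/+ 3 the shared fit called 7 of the 8 in males, all but Sostdc1, beside 2993 of all 18438 tested genes. Gfap, Ngfr and Gfra3 were called in males whichever of the 18 libraries was left out.

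In female islets Gfra3 was the only one of the 8 genes that was called, beside 10.2% of all tested genes called higher and 11% lower. It was also the only one whose groups did not overlap, as was the case for 5.28% of all tested genes. It was at 8.32, 13.2, 13.2, 12.1 and 12.3 CPM in female WT and at 25.5, 25.8, 28.8, 32.0 and 38.1 in female S64F/+ libraries. The log2 fold change was 1.35 ± 0.14 with an edgeR adjusted p of 1.55e-06.

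The other 7 genes each had 2 female S64F/+ libraries above all female WT libraries, and all of them but Gfap also had at least 1 below. Sox10 was at 1.85, 2.11, 3.98, 1.16 and 1.58 CPM in female WT and at 1.79, 5.60, 6.36, 1.08 and 0.550 in female S64F/+ libraries. Libraries 2 and 3 of the female S64F/+ group were above every WT library, while 4 and 5 were below every one. The log2 fold change was 0.51 ± 0.53 with an edgeR adjusted p of 0.55.

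Libraries 2 and 3 of the female S64F/+ group were also the highest for Gfap, S100b and Cdh19. Libraries 4 and 5 were below every WT library for S100b and Cdh19, but within the WT range for Gfap. Gfap was at 1.40, 1.33, 1.89, 0.545 and 1.23 CPM in female WT and at 0.968, 4.32, 4.61, 0.769 and 0.660 in female S64F/+ libraries. S100b was at 0.657, 1.49, 0.985, 0.639 and 0.708 CPM in female WT and at 0.581, 3.17, 5.98, 0.365 and 0.220 in female S64F/+ libraries. For both genes libraries 2 and 3 of the S64F/+ group stood above all WT libraries, and the log2 fold changes were 0.79 ± 0.53 for Gfap and 1.15 ± 0.71 for S100b (edgeR adjusted p = 0.312 and 0.275). Cdh19 was at 1.87, 2.85, 2.30, 0.876 and 0.874 CPM in female WT and at 2.63, 4.36, 9.18, 0.596 and 0.568 in female S64F/+ libraries. Its log2 fold change was 0.95 ± 0.60 and was not called (adjusted p = 0.29 by edgeR).

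Ngfr was at 2.40, 4.74, 2.67, 1.14 and 4.79 CPM in female WT and at 2.26, 11, 7.64, 2.79 and 0.971 in female S64F/+ libraries. Here too libraries 2 and 3 were above all WT libraries, and the log2 fold change was 0.62 ± 0.52 (edgeR adjusted p = 0.436). Foxd3 ranged from 0.758 to 1.73 CPM in female WT and was at 1.16, 2.56, 6.02, 0.827 and 0.715 in female S64F/+ libraries. Sostdc1 ranged from 1.42 to 3.59 CPM in female WT and was at 2.91, 5.16, 7.64, 1.10 and 2.11 in female S64F/+ libraries. Neither difference was called, with log2 fold changes of 0.88 ± 0.48 and 0.58 ± 0.42 (edgeR adjusted p = 0.206 and 0.357). Over the 8 genes the female median log2 fold change was 0.84, beside 0.02 over all tested genes, and it was 0.18 without female S64F/+ 3 and 0.42 with the replicate block.

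The spread among female S64F/+ libraries differed by gene. The highest library was 27.2 times the lowest for S100b, 16.2 times for Cdh19, 11.6 times for Sox10 and 11.3 times for Ngfr. It was 8.42 times for Foxd3, 6.98 times for Gfap and 6.95 times for Sostdc1, but 1.49 times for Gfra3. Female S64F/+ 3 was the highest of its group for 6 of the 8 genes. Female S64F/+ 5 was the lowest for 6 of the 8 and the highest for Gfra3. In the other groups male WT 1 was the lowest for 6 genes, female WT 4 for 6 genes, and male S64F/+ 2 was the highest for 5.

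**Figure D2:**
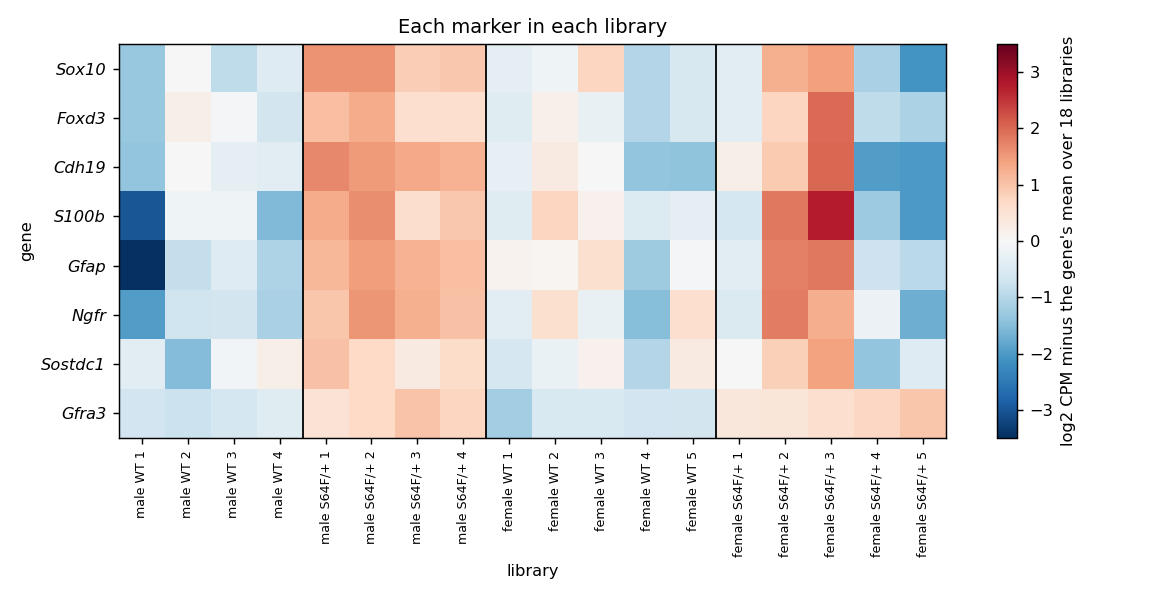
Log2 CPM of each gene in each library minus that gene's mean over the 18 libraries (colour scale in log2 units). Gfra3 follows genotype in both sexes, while the other 7 genes are high in male S64F/+ libraries and in female S64F/+ 2 and 3.

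Although more genes were called in males, no genotype effect on a member was called different between the sexes. The male effect minus the female effect had a median of 0.83 on the log2 scale over the 8 genes, beside 0.01 over all tested genes, and edgeR called 0 of 8, with 0 at an unadjusted p up to 0.05. The members' median was 1.71 without female S64F/+ 3, 0.55 without female S64F/+ 4, 0.54 without female S64F/+ 5 and 1.6 with the replicate block. Of all tested genes 2.87% were called in the direction of a higher effect in males and 1.6% in the other. DESeq2 called 0 of 8 as well, beside 1070 of all 18364 tested genes in the direction of a higher effect in males and 743 in the other. The share of all genes at an unadjusted p up to 0.05 was not counted. The largest of these differences were 1.59 ± 0.79 for Ngfr, 1.5 ± 0.81 for Gfap and 1.34 ± 0.80 for Sox10 (edgeR adjusted p = 0.229, 0.266 and 0.318). For Gfra3 the difference was 0.01 ± 0.20 (adjusted p = 0.984), which is small beside its effect in either sex.

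Between the sexes within 1 genotype no member was called either. In WT islets the male against female log2 differences ran from -1.05 for Gfap to 0.10 for Gfra3 with a median of -0.26. The lowest edgeR adjusted p was 0.378, and of all tested genes 1.73% were called higher and 0.637% lower in males. In S64F/+ islets the differences ran from -0.01 for S100b to 0.92 for Sox10 with a median of 0.42. The lowest adjusted p was 0.256, and of all tested genes 8.0% were called higher and 8.12% lower in males. Both edgeR and DESeq2 called 0 of 8 in each genotype, with 0 at an unadjusted p up to 0.05 in edgeR. Of all 18364 tested genes DESeq2 called 686 higher and 315 lower in males in WT, and 2056 and 1717 in S64F/+. The share of all genes at that unadjusted p was not counted. The medians moved with single libraries. In WT the median was -0.06 without female WT 3, -0.42 without female WT 4, -0.44 without male WT 2 and -0.4 without male WT 4. In S64F/+ it was 0.25, 0.66, 0.93, 0.2 and 0.21 without female S64F/+ 1, 2, 3, 4 and 5. Without female S64F/+ 3, Foxd3 was called higher in male than in female S64F/+ islets (log2 difference 1.17, edgeR adjusted p = 0.0497), beside 1380 of all 18438 tested genes.

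**Figure D3:**
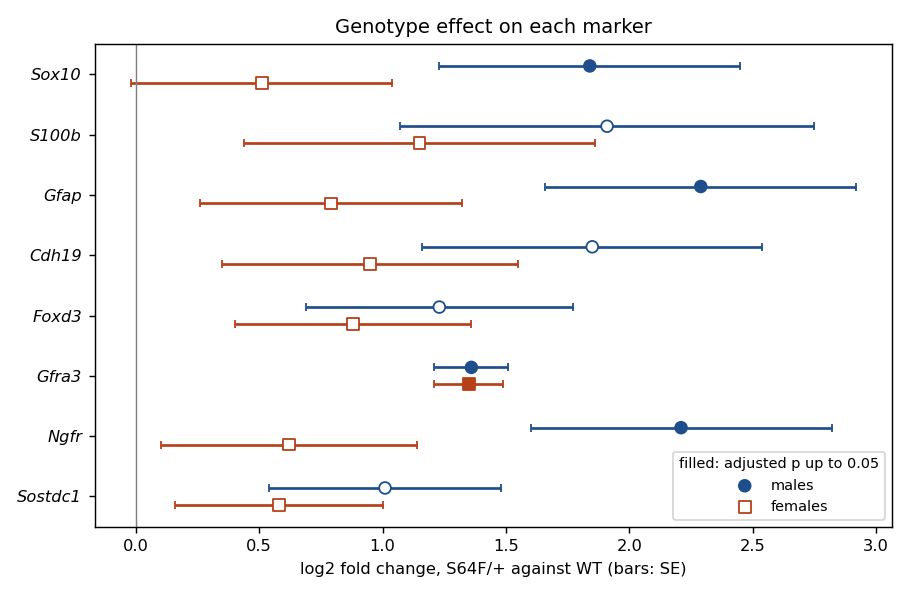
Log2 fold change of S64F/+ against WT (± SE) for each gene in males and females, with filled points for an edgeR adjusted p up to 0.05. Sox10, Gfap, Ngfr and Gfra3 are filled in males and Gfra3 alone in females, and the Gfra3 values of both sexes nearly coincide at 1.36 and 1.35.

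To compare levels between genes, the deposited FPKM values, which divide by transcript length, were used. Gfra3 led in every group, with mean levels of 6.01 ± 0.302 FPKM in male WT, 18 ± 2.35 in male S64F/+, 5.88 ± 1.12 in female WT and 14.6 ± 2.14 in female S64F/+ islets. By its mean Sostdc1 came next, at 1.21 ± 0.463, 2.89 ± 0.629, 1.40 ± 0.495 and 2.06 ± 1.35 FPKM in the same order. In every group, however, its libraries overlapped those of the member that followed it. In every group Gfra3 lay beyond the spread of all other members.

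The middle of the order was held by Ngfr, S100b, Cdh19 and Foxd3. In male WT islets their FPKM levels were 0.436 ± 0.171 for Ngfr, 0.328 ± 0.239 for S100b, 0.346 ± 0.132 for Cdh19 and 0.502 ± 0.24 for Foxd3, which their spreads did not separate. In male S64F/+ islets Ngfr was at 2.38 ± 0.472 FPKM, ahead of S100b at 1.49 ± 0.461, Cdh19 at 1.47 ± 0.255 and Foxd3 at 1.38 ± 0.357, and these last 3 were not separated by their spread. In female S64F/+ islets the SD was close to the mean for 6 of the members, and no order could be read among them.

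Sox10 and Gfap were the lowest per length in every group. Sox10 was at 0.204 ± 0.0889 FPKM in male WT, 0.862 ± 0.25 in male S64F/+, 0.293 ± 0.162 in female WT and 0.407 ± 0.352 in female S64F/+ islets. Gfap was at 0.101 ± 0.0609, 0.597 ± 0.0834, 0.229 ± 0.0951 and 0.393 ± 0.347 FPKM in the same order. Their ranges overlapped in each group. Each gene had counts in all 18 libraries, at low levels for all but Gfra3, which does not show which cells made the RNA.

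How the members varied together was described by the Pearson correlation of log2 CPM over the 18 libraries after taking off each group's mean. The 21 pairs among the 7 genes other than Gfra3 correlated at 0.548 to 0.97 with a median of 0.833, and S100b and Foxd3 were the closest pair. The 7 pairs with Gfra3 lay between -0.381 and -0.08. Libraries share their depth and scaling across genes, and these values carry no test. They also pool groups of unlike spread, so the female S64F/+ libraries weigh heavily in them. For these 7 genes the highest library was 6.95 to 27.2 times the lowest in female S64F/+, but 1.34 to 2.0 times in male S64F/+. Correlations within single groups were not computed. By this pooled measure Gfra3 correlated positively with none of the other 7 genes. Without taking off the group means, its correlation with Sox10 was 0.338.

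With Sox10 in particular, Cdh19 correlated at 0.901, which ranked 45 among the 14545 tested genes whose mean reached 1 CPM. S100b followed at 0.875, Foxd3 at 0.873, Gfap at 0.844 and Ngfr at 0.791, and Sostdc1 was looser at 0.618. Gfra3 was at -0.375, at rank 11676 of the same list. The 6 genes most like Sox10 by this measure were Epha5 at 0.971, Gpm6b at 0.960, Paqr6 at 0.945, Begain at 0.942, Gpr37l1 at 0.940 and Epdr1 at 0.935. Their Spearman correlations were 0.959, 0.926, 0.909, 0.901, 0.903 and 0.957.

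The ratio of each member to Sox10 within a library describes the same data on a linear scale. The Cdh19 to Sox10 ratio of CPM stayed between 0.552 and 1.47 over all 18 libraries, a range of 2.67-fold. The Gfra3 to Sox10 ratio ran from 3.32 to 69.4, a range of 20.9-fold. The other members lay between, at 4.07-fold for Foxd3, 4.52-fold for Ngfr, 8.0-fold for S100b, 8.85-fold for Sostdc1 and 10.2-fold for Gfap. The genotype groups overlapped in the ratio of every member in both sexes, except Foxd3 in males. How often the ratio of any gene to Sox10 separates the groups was not computed, so the Foxd3 ranges are a description only. The Foxd3 to Sox10 ratio was 0.578 to 1.16 in male WT and 0.456 to 0.545 in male S64F/+ libraries.

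Other genes of the Schwann cell lineage were read from lists of related genes. Which cells expressed the listed genes in these islets was not tested. Of 9 transcription factors of the lineage 6 were tested, and in males 4 rose and none fell, with a median log2 fold change of 1.82. Nfatc4, a calcineurin-dependent factor, was at 1.77 ± 0.642 CPM in male WT and 5.92 ± 0.756 in male S64F/+ islets. Its log2 fold change was 1.72 ± 0.29 (edgeR adjusted p = 0.000228). Zeb2, which restrains inhibitors of Schwann cell differentiation, rose by 1.91 on the log2 scale, Egr2, the master factor of myelination, by 1.93 and Ets1 by 0.77. In females none of the 6 was called and the median was 0.34. The effect was larger in males for Nfatc4 by 1.68 (edgeR adjusted p = 0.0222) and for Ets1 by 0.93 (0.02), and neither of these differences was called without male WT 4 (0.0619 and 0.056).

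Of 11 myelin genes reported here 10 were tested, and in males Pmp22, Prx, Mal and Cnp rose, none of these 10 fell and the median was 0.90. Mal, a proteolipid of myelin and of epithelia, was at 1.32 ± 0.264 CPM in male WT and 6.01 ± 2.59 in male S64F/+ islets. The fold change was 2.19 ± 0.55 on the log2 scale, with an edgeR adjusted p of 0.00668. The Pmp22 call was lost without male WT 1 (adjusted p = 0.0521). In females Mbp fell by 0.25 on the log2 scale, none rose and the median was 0.30.

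Of 14 genes of non-myelinating and other glia reported here, all tested, 9 rose in males with a median of 1.22, and 3 rose in females with a median of 0.41. Ptprz1, a receptor phosphatase of glia, rose in both sexes, by 1.12 and 0.95 on the log2 scale (edgeR adjusted p = 5.69e-05 and 0.000109). Its female S64F/+ libraries ran from 18.1 to 31.1 CPM, all above the 10.9 to 13.3 CPM of female WT, unlike the split seen for Sox10. Lgi4, a secreted Schwann cell protein, was at 5.53 ± 1.0 CPM in male WT and 15 ± 1.43 in male S64F/+ islets and rose by 1.43. L1cam, an adhesion molecule of non-myelinating Schwann cells and axons, rose by 1.45 in males.

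Neuregulin signalling carries the axonal signal on which Schwann cells depend. Of 9 genes 4 rose in males and none fell, with a median of 1.32, and none was called in females, with a median of 0.27. The receptor gene Erbb3 was at 9.46 ± 3.86 CPM in male WT and 23.7 ± 4.81 in male S64F/+ islets. This was a change of 1.32 ± 0.22 on the log2 scale, with an edgeR adjusted p of 0.000269. Its partner Erbb2 rose by 1.84, Erbb4 by 2.96 and the ligand gene Nrg1 by 1.43. The Erbb2 call was lost in the fit of male libraries alone (adjusted p = 0.0504). In females Erbb3 had a log2 fold change of 0.51 ± 0.20 (adjusted p = 0.0747).

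Of the direct partners of Gfra3, Ret fell and Artn was not called. Ret, the signalling receptor that Gfra3 serves, was at 149 ± 13.4 CPM in male WT and 93.6 ± 15.2 in male S64F/+ islets, and at 187 ± 28.0 and 90.9 ± 20 in the female groups. Its log2 fold changes were -0.67 ± 0.16 in males and -1.04 ± 0.14 in females (edgeR adjusted p = 0.00367 and 3.83e-05), and the male call was lost when libraries were scaled by plain totals (-0.45, adjusted p = 0.074). Artn, the gene of the ligand artemin, was at 0.637 ± 0.166 and 1.05 ± 0.186 CPM in male WT and S64F/+ islets, with log2 fold changes of 0.72 ± 0.39 in males and 0.12 ± 0.35 in females, neither called (0.19 and 0.846). The male Artn ranges did not overlap, with 0.432 to 0.774 CPM in WT and 0.927 to 1.33 in S64F/+ libraries. Of 7 tested genes of this family of 8, Gfra2 and Gfra4 rose and Ret fell in males with a median of 0.72. The Gfra2 and Gfra4 calls were lost in 10 and 5 of the 18 fits with 1 library left out. In females Gfra1 rose, a call lost in 3 of those fits, and Ret fell, with a median of 0.47.

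Ngfr acts in neurotrophin signalling, of which 9 genes are reported here and 8 were tested. The receptor kinase gene Ntrk3 had a log2 fold change of 0.11 ± 0.38 in males and -0.68 ± 0.33 in females, neither called (edgeR adjusted p = 0.858 and 0.159). Ntrk2 and Maged1 were lower in males, and the median was -0.22. Both falls were lost with scaling by plain totals. In females Sorcs2 and Bex3 rose, none fell and the median was -0.17, and the Bex3 call was lost in 6 of the 18 fits with 1 library left out.

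Of 11 BMP and Wnt genes set beside Sostdc1, 9 were tested, and Bmp2, Bmp4 and Lrp5 rose in males with a median of 0.42 (the Bmp2 call was lost in 2 and the Bmp4 call in 3 of the 18 fits with 1 library left out). In females Bmp7 rose and Lrp4, Lrp5 and Lrp6 fell, with a median of 0.12. Lrp4, a receptor to which Sostdc1 binds, had a log2 fold change of 0.15 ± 0.22 in males (edgeR adjusted p = 0.662), and it fell by 0.73 in females (0.0119). Lrp5, the Wnt co-receptor, moved in opposite directions, by 0.35 in males and -0.35 in females, and this difference between the sexes was called (0.70, adjusted p = 0.0176). The male Lrp5 call was lost without male WT 1, male WT 4 or male S64F/+ 1 (adjusted p = 0.0618 to 0.108). The female one was lost without female S64F/+ 2 (0.0618) and with plain totals (0.051).

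Repair Schwann cells are the state that Schwann cells take after nerve injury. Of 8 such genes 5 were tested, and Runx2, Lif and Btc (the last a call lost in 3 of those 18 fits) rose in males with a median of 1.06, while none was called in females with a median of 0.47. Jun, the transcription factor that drives the repair state, was not called, at 515 ± 87.7 and 680 ± 128 CPM in male WT and S64F/+ islets (log2 fold change 0.40, edgeR adjusted p = 0.317).

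Gfap belongs to the intermediate filaments, and 6 of 8 others on the list rose in males with a median of 1.54 (Vim, Nes, Des, Synm, Nefm and Nefh). In females Nefm and Nefh rose and the median was 0.45. Nefh, the heavy neurofilament subunit of axons, was at 8.88 ± 0.402 CPM in male WT and 24.9 ± 3.94 in male S64F/+ islets and at 10.4 ± 1.28 and 19.7 ± 0.935 in the female groups. Its log2 fold changes were 1.48 ± 0.11 and 0.91 ± 0.10 (edgeR adjusted p = 7.15e-08 and 3.71e-06). S100b belongs to the S100 family, of which 8 of 11 listed genes were tested, with S100a6 and S100a16 higher in males (median 0.36) and S100a10, S100a11, S100a13 and S100a16 higher in females (median 0.53). The female S100a16 call was lost without female WT 1, female WT 2 or female S64F/+ 3 (edgeR adjusted p = 0.067, 0.0502 and 0.0938).

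**Figure D4:**
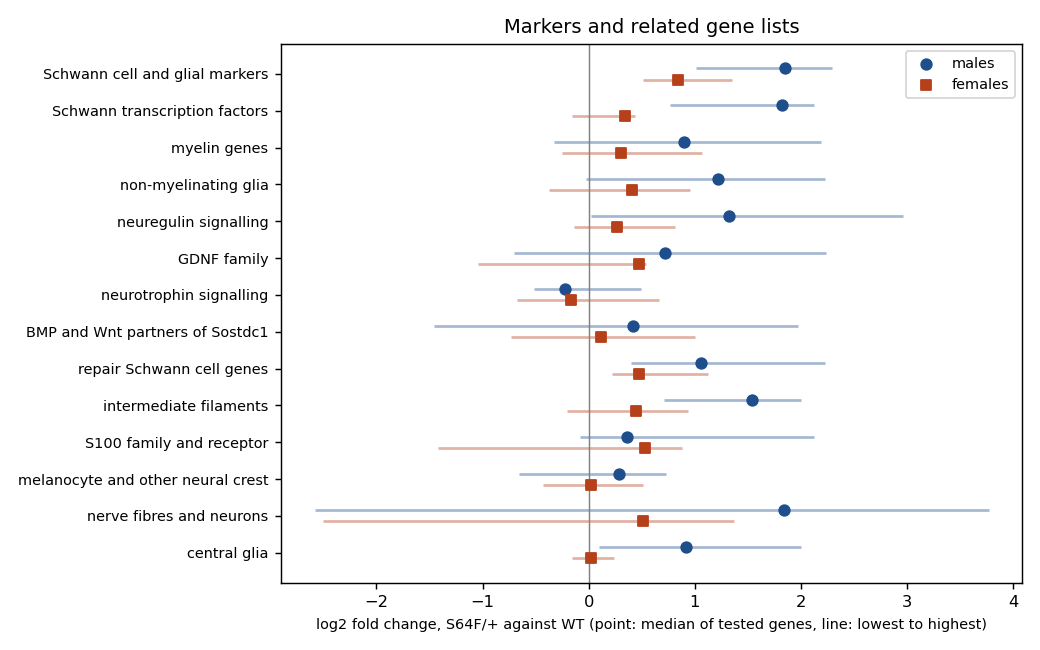
Median (point) and range (line) of the log2 fold change of S64F/+ against WT over the tested genes of each list, for males and females. The 8 markers have medians of 1.85 in males and 0.84 in females, and of the related lists drawn here nerve fibres and neurons (1.84) and transcription factors (1.82) have the next highest male medians.

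Markers of other cells moved in the same male comparison, and their part in the members' result was not tested. Of 12 genes of nerve fibres and neurons, Dbh and Hand2 rose and Th fell in males with a median of 1.84, and Calca rose and Th fell in females with a median of 0.51. The Dbh and Hand2 calls were each lost in 8 of the 18 fits with 1 library left out and the Calca call in 11. Th, tyrosine hydroxylase, which beta cells can also make, was at 45.6 ± 6.54 and 7.63 ± 1.71 CPM in male WT and S64F/+ islets. The summed level of these 12 genes ran from 104 to 233 CPM in the WT and 223 to 375 in the S64F/+ libraries of males, and from 125 to 338 and 59.7 to 542 in those of females. In the female S64F/+ group libraries 2 and 3 were the high ones here too, at 542 and 472 CPM against 59.7 to 106 in the other 3.

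Stellate cell and fibroblast markers rose in 10 of 11 genes in males with a median of 2.40 and in 1 of 11 in females (Col6a3) with a median of 0.42. Their summed level was 252 to 576 CPM in male WT and 1640 to 2470 in male S64F/+ libraries, with no overlap. It was 332 to 895 CPM in female WT and 309 to 1090 in female S64F/+ libraries. The female S64F/+ libraries 2 and 3 were again the highest, at 984 and 1090 CPM, and library 5 the lowest at 309.

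Endothelial markers rose in 6 of 7 genes in males and 0 of 7 in females, from a summed 419 to 585 CPM in male WT to 821 to 944 in male S64F/+ libraries, and at 477 to 678 and 519 to 678 in the female groups. Macrophage markers rose in 5 of 6 tested genes in males and 4 in females, with sums of 26.0 to 30.7 and 64.3 to 85.3 CPM in the WT and S64F/+ libraries of males and 21.1 to 35.2 and 31.8 to 93.9 in those of females. Ductal markers rose in 4 of 7 in males and 3 of 7 in females, with sums of 455 to 473, 690 to 811, 440 to 499 and 509 to 581 CPM in the same order. No acinar marker of 5 tested was called, and the sums were 2080 to 20800, 3150 to 13300, 8710 to 33100 and 11800 to 27100 CPM. Beta cell markers fell in 6 of 7 genes in males and 5 of 7 in females, from summed levels of 211000 to 288000 CPM in male WT to 126000 to 140000 in male S64F/+ libraries, and at 166000 to 306000 and 131000 to 244000 CPM in the female groups.

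Markers of other glia and of other neural crest lines were read as well. Of 7 markers of central glia 4 were tested, with Slc1a2 and Gja1 higher in males (median 0.92) and none called in females (median 0.02), and the Slc1a2 call was lost in 5 of the 18 fits with 1 library left out. The list summed to 8.45 to 26.7 CPM over all libraries, and Olig2, a factor of oligodendrocytes, had 0 counts in all 18. Of 8 melanocyte and other neural crest genes 5 were tested, with Kit higher in males (median 0.29, a call lost in 2 of those fits) and none called in females (median 0.02), and Tyrp1, a pigment enzyme, had 0 counts in all 18. This list summed to 28.1 to 36.4 CPM in male WT and 33.5 to 41.7 in female WT libraries, above the 8 members' own sums of 17.9 to 24.7 and 18.7 to 29.9. In male S64F/+ libraries it summed to 40.2 to 48.0 CPM, below the members' 59.9 to 68.7. In female S64F/+ libraries it summed to 34 to 52.4 CPM, overlapping the members' 37.8 to 76.3. Kit, Ednrb and Mitf had the highest means of this list in all 4 groups.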

How the data were processed

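Whole-islet RNA was sequenced as paired-end 150-nucleotide reads on an Illumina NovaSeq6000, from samples with an RNA integrity number above 8.0, per the labels' protocols. The authors deposited raw counts per gene and FPKM values for 18 libraries on GRCm38. STAR, featureCounts, FastQC, MultiQC and DESeq2 are named without version or role in the submitters' processing notes, and no source used here gives the annotation, the strand setting or the handling of multiply mapped reads. The deposited FPKM equalled the count over the library's plain total and the gene's length, so FPKM served only to compare levels between genes. Of 53900 listed features, 99 were not mouse genes, had 0 counts and were left out.

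Counts were tested in R 4.3.3 with edgeR 4.0.16: filterByExpr by group (minimum count 10, minimum total 15), TMM scaling (trimmed mean of M values), and 1 robust quasi-likelihood fit over all 18 libraries with 1 coefficient per group (biological coefficient of variation 24.4%). P-values were two-sided and adjusted by Benjamini-Hochberg over 18364 genes, with a threshold of 0.05. CPM used TMM-scaled totals, and likeness used log2 CPM with a prior count of 2. The code was tested on simulated data. Alternatives were scaling by plain totals, DESeq2 1.42.0, no filter, a stricter filter (1 CPM in 4 libraries), a replicate block, fits of the compared groups alone and each library left out.

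The members, the related lists and the tests were chosen with earlier results of these data known. Named were all 8 members, up to 4 called genes per list by smallest p with a set of direct partners, the 6 genes most like Sox10, and Mafa. Names listed where 5 or fewer genes of a list were called, the genes most like Gfra3, Jun and the undetected markers were chosen after their values were seen, and some genes that the rule or the lists took are not reported here and are left out of the lists' counts and medians, also where they were called. The calls of Prx, Bmp7, Lrp6, Nes, Synm, S100a13 and the markers of other cell types were not recomputed under the alternatives. The groups share replicate numbers. After each group's mean was taken off, libraries of 1 sex with 1 number in common were correlated across genotypes. The 5 female pairs were at 0.11 to 0.418, all positive, and the 4 male pairs at -0.249 to 0.189, of both signs. The labels do not say what a number marks, so any pairing rests on these values, and the main fit used none. The lowest member counts were 2, so the levels of Gfap and S100b in male WT 1 are imprecise.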

Additional observations from a re-analysis of the deposited data

Results flagged for a closer look

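Gfra3 in female WT 1 was at 8.32 CPM, below the 12.1 to 13.2 CPM of the other female WT libraries. The gap to the nearest library, divided by the range of the group, was above Dixon's 95% critical value. Of 32 sets of values tested, 8 genes in 4 groups, this was the only one so marked, and chance alone is set to mark 5% of such sets. Leaving out female WT 1 kept the female Gfra3 call.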

How the results depend on the processing

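Gfra3 in both sexes, and Gfap and Ngfr in males, were called under all 6 other settings and with any 1 library left out. The count of members called in males was 4, and it was 7 with the replicate block and 8 in a fit of male libraries alone, 6 with DESeq2, 5 with plain totals or the stricter filter and 3 without a filter. Genes called higher over all tested were 2819 of 18364, with 2923 of 18364 for the block and 3263 of 16957 for males alone. They were 3170 of 18364 with DESeq2 and 4248 of 18364 with plain totals. The stricter filter gave 2563 of 15119 and no filter 2545 of 33562. The count of members ran from 3 to 7 over fits with 1 library left out, with 7 without female S64F/+ 3. In females the count was 1 in all settings run, also with the replicate block, which changed no female member call but moved the female median from 0.84 to 0.42 and the male minus female median from 0.83 to 1.6. Numbers do not pair the male libraries, of which 2 of 8 correlated best with their own number, and in females 5 of 10 did. Male against female S64F/+ counts ran from 0 to 1 with 1 library left out. Scaling by plain totals moved the median of all genes to 0.193 in males, with 4248 genes called higher and 666 lower against 2819 and 2252, and gave members' medians of 2.06 in males and 0.78 in females. It moved the interaction to 1031 higher and 30 lower, against 527 and 294, with a median of 0.253. In S64F/+ islets it gave 2763 genes higher in males and 374 lower, against 1470 and 1492. Signs also turned for values that were not called. Uncalled values near 0 in females, such as those of Nfatc4 (-0.11 to 0.18), L1cam (-0.25 to 0.16) and Lgi4 (-0.09 to 0.36), did so with 1 library left out. Among members, those that turned with plain totals were Foxd3 in WT between the sexes (-0.01) and S100b in S64F/+ between the sexes (0.21). S100b was also at 0.02 without a filter and 0.0 with the stricter one. With 1 library left out, between the sexes in WT, Cdh19 ran from -0.2 to 0.23, Foxd3 from -0.2 to 0.25, Gfra3 from -0.01 to 0.15 and Sostdc1 from -0.35 to 0.15. S100b in S64F/+ between the sexes ran from -0.31 to 0.96, and the Gfra3 difference of effects from -0.08 to 0.12. Lrp4 in males ran from -0.02 to 0.34, Ntrk3 in males from -0.09 to 0.29 and Artn in females from -0.15 to 0.3. Where no other reason is given, the cause was not tested. Depth limits Gfap and S100b most, with 2 counts each in male WT 1.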

Other observations

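The genes whose library-to-library variation was most like that of Gfra3 were other genes than those most like Sox10. By Pearson correlation of log2 CPM over the 18 libraries after taking off each group's mean, they were Lactb at 0.808, Uox at 0.808, Pgp at 0.806, Gpr135 at 0.769, Apbb1 at 0.763 and Tmem53 at 0.758. This search was made after the values were seen, and it carries no test.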
